A study of Mus musculus with 40 samples.

Results

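The gp130 cytokines Il6, Lif and Clcf1, their receptors and STAT3 feedback were followed in the brains of neonatal mice given lipopolysaccharide (LPS), a peptide and a hypoxic-ischaemic injury. The 10 genes described were chosen by name from those on the array, out of 19937 genes tested. They were chosen with earlier results of these data known, so their counts beside shares of all genes only describe them. Il6, Lif and Clcf1 encode cytokines, Osmr, Il6ra, Il6st and Lifr encode receptor chains, Stat3 encodes the transcription factor below them, and Socs3 encodes the inhibitor that this factor induces. Il4ra, the receptor chain for interleukin-4 and interleukin-13, was kept beside them although it does not pair with the shared chain of the other receptors. The probe sets were 10520452 for Il6, 10373918 for Lif, 10460385 for Clcf1, 10427471 for Osmr, 10499655 for Il6ra, 10407173 for Il6st, 10422822 for Lifr, 10391301 for Stat3, 10393449 for Socs3 and 10557326 for Il4ra. Socs3 was the member with more than 1 probe set, and for it the brighter of its 2 was used.

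The cytokines of the interleukin-6 family signal through gp130, the product of Il6st. Interleukin-6 first binds the chain encoded by Il6ra and then gp130, leukaemia inhibitory factor (Lif) and the cytokine encoded by Clcf1 bring gp130 together with the chain encoded by Lifr, and oncostatin M brings it together with the chain encoded by Osmr. The receptors activate JAK kinases, these phosphorylate STAT3, and STAT3 switches on target genes that include Stat3 itself and Socs3, whose product binds gp130 and shuts the signal down. In the brain the pathway is best known for the acute phase response of endothelium and the reactive response of astrocytes.

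The mice were C57/Bl6 pups of postnatal day 9, and RNA of frozen brain was measured on 40 Affymetrix arrays, 5 in each of 8 groups. The Vehicle group and the IDR-1018 group had their brains taken 10 h after vehicle or after IDR-1018, a synthetic innate defence regulator peptide. The LPS group had brains taken 6 h after LPS, and its label mentions no vehicle. The group given LPS with IDR-1018 received the peptide 4 h before LPS and was also sampled 6 h after LPS. The 4 remaining groups (LPS/HI) model sensitised hypoxia-ischaemia (HI). These pups had vehicle or IDR-1018 4 h ahead of LPS and underwent HI 14 h after it, and tissue was collected 6 h after HI. The left hemisphere was labelled injured and the right uninjured, so each LPS/HI treatment gave 2 groups, and all hemispheres of these groups had been exposed to LPS. The other 4 groups are labelled as uninjured brain, with no hemisphere named. The Vehicle and IDR-1018 groups therefore differ from the LPS/HI groups in the time since dosing as well as in LPS and HI. The labels do not say whether arrays of a group are separate animals, so p-values measure the spread between these samples, which may be technical.

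Values are deposited log2 signals after RMA (robust multi-array average), and differences are given on that log2 scale with the standard error of limma's fit. A gene was called where its Benjamini-Hochberg adjusted p over all 19937 genes was under 0.05. The medians of the 40 arrays lay between 6.99 and 7.13, and 8 of the 10 members were above the dimmest 25% of genes by mean signal. The exceptions were Il6 and Lif, whose values are dim. The neuronal genes Snap25, Rbfox3 and Syt1 stood at percentiles 99.7, 95.5 and 99.8 of all genes by mean signal, which checks the label brain. The sex of the pups is not labelled. Xist was high on 2 Vehicle, 1 IDR-1018, 5 LPS and 2 LPS with IDR-1018 arrays, and on 3 or 4 of 5 in each LPS/HI group. Array 3 of the injured LPS/HI group carried both Xist and Y-linked signal, while the uninjured array of the same number carried Xist alone. The other 9 of 10 hemisphere pairs showed the same pattern on both sides. The counts that rest on this array are given with and without it, as are the named genes whose call depends on it.

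Promoter sequences are shown for the 4 members that were called higher in both hemisphere comparisons and have an entry in RefSeq (assembly GRCm38.p6). RefSeq windows were found for 9 of the 10 members, with 2 windows for Lifr and none matched for Clcf1. Each line gives the 250 bases before the transcription start, 5′ to 3′ on the gene's own strand. Capitals mark TTCNNNGAA, the spaced palindrome that STAT dimers bind, which reads the same on both strands.
Osmr (chr15:6874314-6874563, minus strand): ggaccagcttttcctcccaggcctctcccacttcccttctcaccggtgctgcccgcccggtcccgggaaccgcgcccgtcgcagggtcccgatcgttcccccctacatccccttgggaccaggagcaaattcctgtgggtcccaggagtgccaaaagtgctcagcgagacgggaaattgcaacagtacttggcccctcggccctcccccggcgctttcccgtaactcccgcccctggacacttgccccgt
Stat3 (chr11:100939541-100939790, minus strand): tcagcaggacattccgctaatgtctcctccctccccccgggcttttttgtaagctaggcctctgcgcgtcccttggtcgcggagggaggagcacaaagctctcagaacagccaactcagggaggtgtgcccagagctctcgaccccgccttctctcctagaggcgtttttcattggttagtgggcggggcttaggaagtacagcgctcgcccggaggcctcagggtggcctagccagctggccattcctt
Socs3 (chr11:117969367-117969616, minus strand): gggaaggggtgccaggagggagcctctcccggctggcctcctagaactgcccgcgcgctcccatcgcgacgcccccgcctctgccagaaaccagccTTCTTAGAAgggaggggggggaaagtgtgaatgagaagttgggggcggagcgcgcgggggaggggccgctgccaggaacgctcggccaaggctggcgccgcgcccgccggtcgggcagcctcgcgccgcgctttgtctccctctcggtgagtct
Il4ra (chr7:125552021-125552270, plus strand): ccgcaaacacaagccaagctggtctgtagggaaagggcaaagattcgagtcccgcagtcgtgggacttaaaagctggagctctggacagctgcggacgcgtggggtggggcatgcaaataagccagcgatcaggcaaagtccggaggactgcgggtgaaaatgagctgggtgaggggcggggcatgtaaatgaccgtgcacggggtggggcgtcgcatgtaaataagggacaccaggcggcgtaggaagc
In windows reaching from 250 bases before to 50 after the start, TTCNNNGAA occurred in 1 of the members' 10 windows, that of Socs3, where it began at position -154 from the start. It occurred in 8.3% of the 32851 RefSeq windows of the same length. The form with a spacer of 4 bases, TTCNNNNGAA, which STAT6 of the interleukin-4 pathway prefers, occurred in 0 of the 10 windows and in 6.95% of all. These matches describe letters in a short window and are no measure of binding.

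Osmr showed the widest range of the 10 members. Its group means ran from 7.62 in Vehicle to 8.91 in the injured LPS/HI hemisphere, a span of 1.28, against spans of 0.29 to 0.65 for the other 9 members. In Vehicle the 5 arrays read 7.70, 7.60, 7.73, 7.58 and 7.50, and with IDR-1018 alone they read 7.59, 7.67, 7.79, 7.86 and 7.53. After LPS they read 8.31, 8.35, 8.19, 8.42 and 8.27. Every LPS array was above every Vehicle and IDR-1018 array. With LPS and IDR-1018 together Osmr read 9.20, 8.82, 8.48, 8.72 and 8.90, which again lay above every array of LPS alone. In the uninjured LPS/HI hemisphere it read 8.11, 7.90, 7.91, 7.87 and 7.47, and in the injured one 9.24, 8.85, 8.86, 8.98 and 8.61. With IDR-1018 the uninjured values were 7.91, 7.91, 7.65, 7.84 and 7.69 and the injured values 9.00, 9.21, 8.79, 8.52 and 8.92. The order of levels was therefore Vehicle, IDR-1018 and both uninjured hemispheres, whose neighbours overlapped, then LPS alone, which overlapped neither neighbour in the order, and then LPS with IDR-1018 and both injured hemispheres, which overlapped one another.

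**Figure D1:**
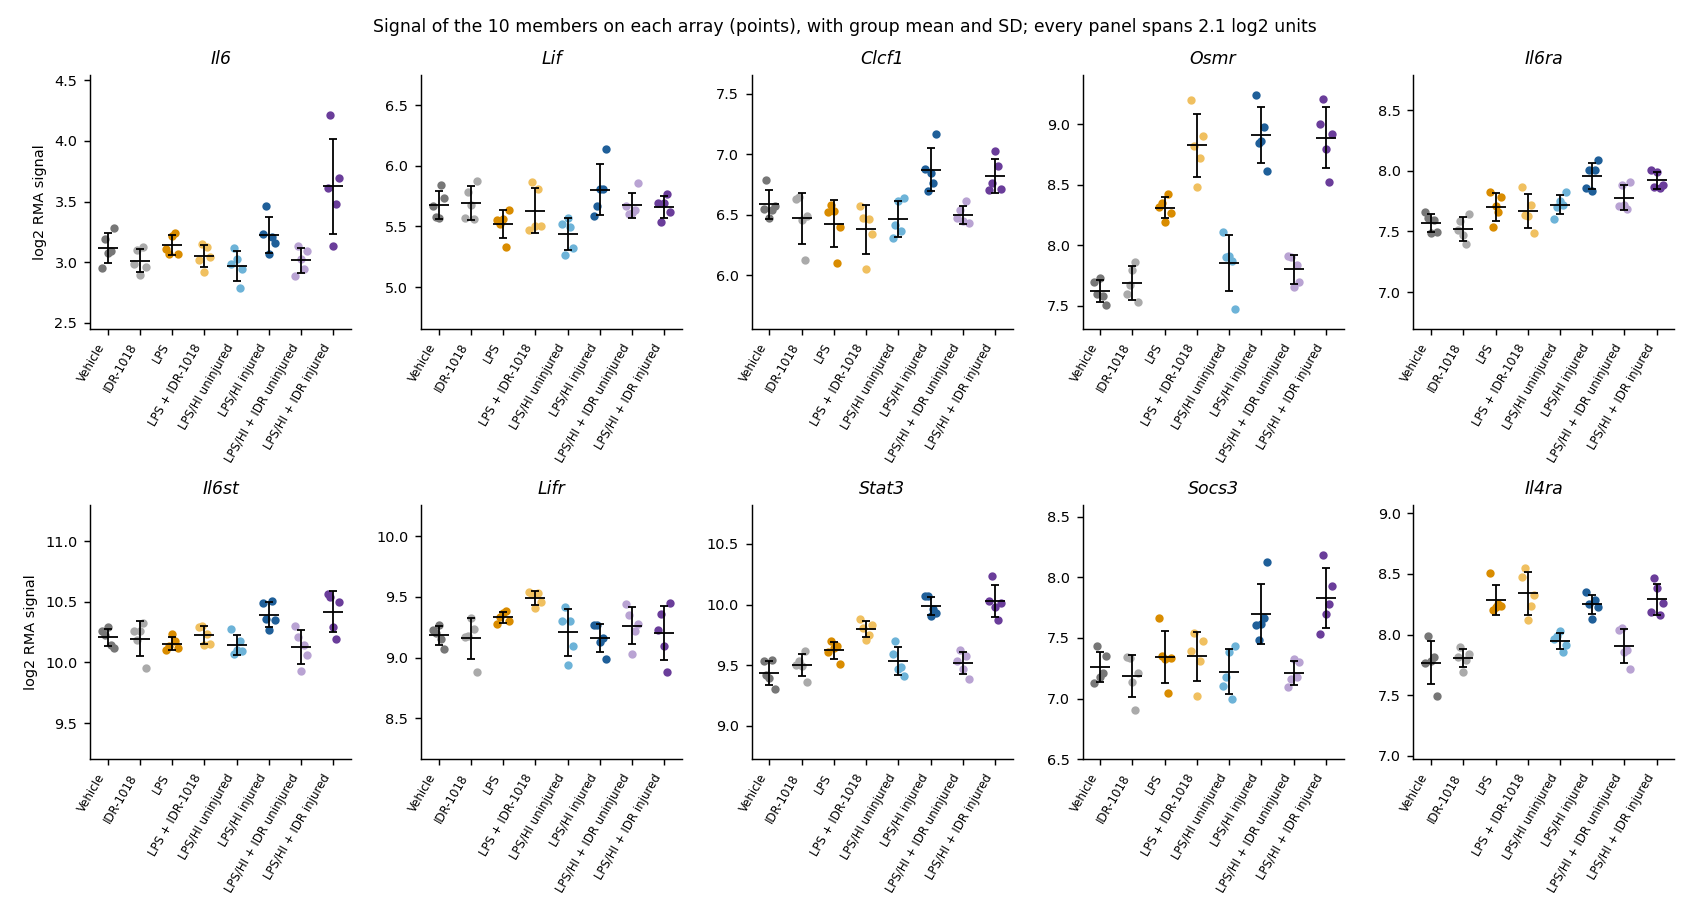
Log2 RMA signal of each member (vertical axis) on each of the 40 arrays (points), by group (horizontal axis), with the group mean and SD as bars. Every panel covers the same height, so Osmr stands out by its span of 1.28, while Il6st and Lifr span 0.29 and 0.34.

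LPS alone against Vehicle asks how the pathway stood 6 h after endotoxin. Among the 10 members 2 rose and none fell, against 0.833% of all genes called in this comparison. The groups did not overlap for 3 members, against 2.00% of all genes. Osmr rose by 0.69 ± 0.06 (SE, n = 5 and 5; 1.61-fold; limma adjusted p = 3.8e-05). Il4ra rose by 0.52 ± 0.09 (1.43-fold; limma adjusted p = 0.00917), from 7.76, 7.99, 7.78, 7.82 and 7.49 in Vehicle to 8.51, 8.20, 8.23, 8.25 and 8.24 after LPS. The Il4ra groups did not overlap, and array 1 stood above the other LPS arrays. With the Xist level as a covariate the Il4ra difference was 0.42 (limma adjusted p = 0.298), and Xist was high on all 5 LPS arrays and on 2 Vehicle arrays. The Osmr call was kept under that covariate.

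The ligand genes did not pass the test after LPS. Il6 differed by 0.02 ± 0.07, and Lif and Clcf1 both by -0.16, with adjusted p of 0.799 or above by limma. Among receptor chains, Il6ra differed by 0.13 ± 0.07 and Il6st by -0.05 ± 0.06. Lifr was 0.15 ± 0.06 higher and its groups did not overlap, at 9.23, 9.21, 9.27, 9.15 and 9.07 against 9.27, 9.33, 9.36, 9.38 and 9.30, but its limma adjusted p was 0.573. Stat3 was 0.18 ± 0.06 higher (limma adjusted p = 0.431) and Socs3 0.08 ± 0.10 (limma adjusted p = 0.949), and both overlapped Vehicle. The median difference of the 10 members was 0.11, beside -0.02 over all genes. At an unadjusted p under 0.05 there were 5 members, Il4ra, Lif, Lifr, Osmr and Stat3, beside 6.22% of all genes. Of these, Lif was the lower one.

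In pups given IDR-1018, the LPS response was measured against IDR-1018 alone, and 4 members rose and none fell, against 1.47% of all genes called. Osmr rose by 1.13 ± 0.11 (2.19-fold; limma adjusted p = 0.000105), Il4ra by 0.53 ± 0.08 (limma adjusted p = 0.00263), Lifr by 0.34 ± 0.08 (limma adjusted p = 0.0428) and Stat3 by 0.30 ± 0.06 (limma adjusted p = 0.0217). None of these 4 overlapped between groups, against 3.42% of all genes that did not. Lifr read 9.17, 9.18, 9.32, 9.23 and 8.88 with IDR-1018 and 9.54, 9.53, 9.41, 9.53 and 9.46 with LPS added. Stat3 read 9.50, 9.54, 9.49, 9.62 and 9.36 and then 9.88, 9.81, 9.71, 9.75 and 9.83. The calls of Lifr and Stat3 were both lost without array 1, 2 or 5 of LPS with IDR-1018 or without array 1 of IDR-1018, and the count then was 2. The Lifr call was also lost without array 4 of LPS with IDR-1018 and without array 2 or 4 of IDR-1018. Median centring and Xist as a covariate lost it too (limma adjusted p of 0.0576 to 0.118 over all settings that lost it). The Stat3 call was also lost without array 3 of IDR-1018. Lifr and Osmr, both higher here, are neighbours on chromosome 15 in RefSeq with 0 protein-coding genes between them.

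Setting LPS with IDR-1018 against LPS alone asks what differs 6 h after LPS when the peptide was given before it. The label of LPS alone names no vehicle. The peptide and an earlier dose of any kind therefore cannot be told apart, here or in the interaction below. No member was called in this comparison and 0% of all genes were, by limma. At an unadjusted p under 0.05, 3 of the 10 members were higher, Osmr, Lifr and Stat3, beside 13.4% of all genes in either direction. Osmr was 0.52 ± 0.11 higher (limma adjusted p = 0.326), Lifr 0.16 ± 0.05 and Stat3 0.17 ± 0.06, both with the same adjusted p. All arrays with the peptide lay above all arrays without it for these 3 members, a separation that 2.76% of all genes showed in either direction. Lifr read 9.27, 9.33, 9.36, 9.38 and 9.30 with LPS, and 9.41 was its lowest value with the peptide added. Stat3 read 9.61, 9.70, 9.64, 9.66 and 9.51 with LPS, and 9.71 was its lowest value with the peptide. The Osmr difference fell to 0.30 with the Xist level as a covariate, where 5 LPS arrays and 2 of LPS with IDR-1018 were high in Xist. Its adjusted p ranged from 0.156 to 0.6 over the alternatives. The test of whether the LPS effect on Osmr differed with the peptide gave 0.45 ± 0.13 (20 arrays; limma adjusted p = 0.86), and 0.00502% of all genes were called in that interaction. Il6, Il6ra, Socs3 and Il4ra differed by -0.09, -0.03, 0.00 and 0.06.

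For IDR-1018 alone against Vehicle no member was called by limma, with 0 of 10 at an unadjusted p under 0.05 and 0% of all genes called. The member differences ran from -0.12 for Clcf1 to 0.07 for Osmr, and the 95% interval for Osmr was -0.09 to 0.23.

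**Figure D2:**
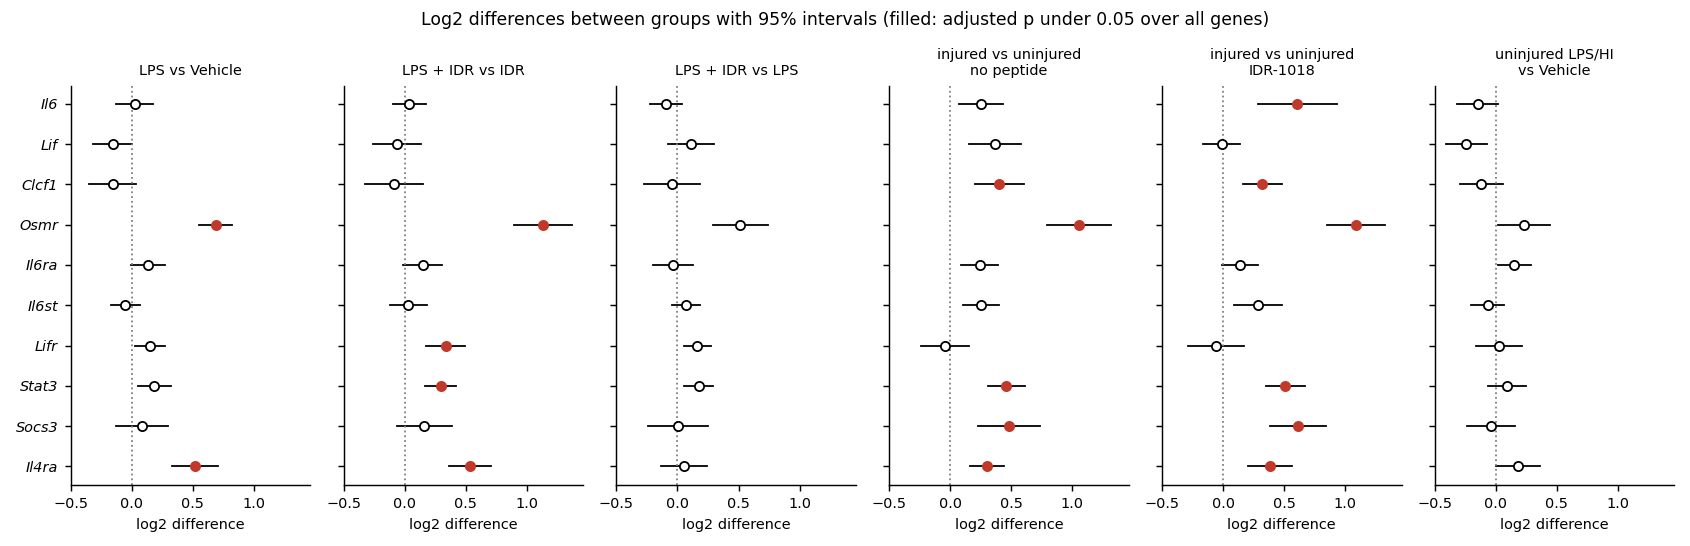
Log2 difference of each member (horizontal axis) with its 95% interval in 6 comparisons (panels), filled where limma's adjusted p over all genes was under 0.05. Osmr and Il4ra are filled in both LPS comparisons, and Osmr, Stat3, Socs3, Clcf1 and Il4ra in both hemisphere comparisons.

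The injured left hemisphere was set against the uninjured right one to ask how the sides differ within the same treatment. All of these pups underwent HI, so the contrast does not compare HI with no HI. Side and injury cannot be told apart in it. Without peptide 5 members rose and none fell, namely Clcf1, Osmr, Stat3, Socs3 and Il4ra, against 2.99% of all genes called. With IDR-1018 the same 5 rose and Il6 was called with them, so 6 of 10 rose, against 2.50% of all genes. The hemispheres did not overlap for 7 members without peptide and 5 with it, against 5.03% and 5.12% of all genes. The median member difference was 0.33 without peptide, beside 0.01 over all genes, and 0.35 with peptide, beside 0.00. Osmr had the greatest difference of the members on both occasions. Its level in injured tissue was 1.06 ± 0.12 higher without peptide (2.08-fold; limma adjusted p = 0.00047) and 1.09 ± 0.11 higher with it (2.13-fold; limma adjusted p = 0.000217).

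Stat3 rose by 0.46 ± 0.07 without peptide (1.37-fold; limma adjusted p = 0.00368) and by 0.51 ± 0.08 with it (1.43-fold; limma adjusted p = 0.00357). Without peptide its uninjured values were 9.59, 9.70, 9.47, 9.48 and 9.41 and its injured values 10.07, 10.07, 9.91, 9.97 and 9.93. With peptide they were 9.53, 9.62, 9.47, 9.57 and 9.39 and then 10.03, 10.24, 9.98, 9.87 and 10.02. The groups were apart in both settings. Between hemisphere arrays of the same number Stat3 differed by 0.37 to 0.52 without peptide and by 0.30 to 0.63 with it. Both injured groups came last in the order of Stat3 levels and lay above every array of LPS alone. LPS with IDR-1018 came next below them and reached 9.88, above the lowest injured array with peptide (9.87) but under every injured array without it.

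Socs3, the feedback inhibitor, rose by 0.48 ± 0.12 (1.39-fold; limma adjusted p = 0.0434) and, with peptide, by 0.61 ± 0.11 (1.53-fold; limma adjusted p = 0.00884). It read 7.10, 7.18, 7.39, 7.00 and 7.43 in uninjured and 7.61, 7.48, 7.62, 7.66 and 8.13 in injured tissue. With peptide it read 7.10, 7.16, 7.33, 7.18 and 7.30 and then 7.54, 8.19, 7.70, 7.78 and 7.93. Neither pair of groups overlapped, and array 5 of the injured group without peptide stood above the rest. Unlike Osmr and Il4ra, Socs3 was not called in any LPS comparison at 6 h, and whether its injury and LPS differences differ was not tested. The second probe set annotated to Socs3, 10383010, differed between hemispheres by 0.07 ± 0.07 (limma adjusted p = 0.741) and, with peptide, by 0.16 ± 0.08 (limma adjusted p = 0.373), so the 2 probe sets did not give the same call. With the mean of both probe sets, the Socs3 difference without peptide was 0.27 and was no longer called (limma adjusted p = 0.0947), and with peptide it was 0.39 (limma adjusted p = 0.0113). The call without peptide was also lost without any 1 injured array or without uninjured array 1, 2 or 4.

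**Figure D3:**
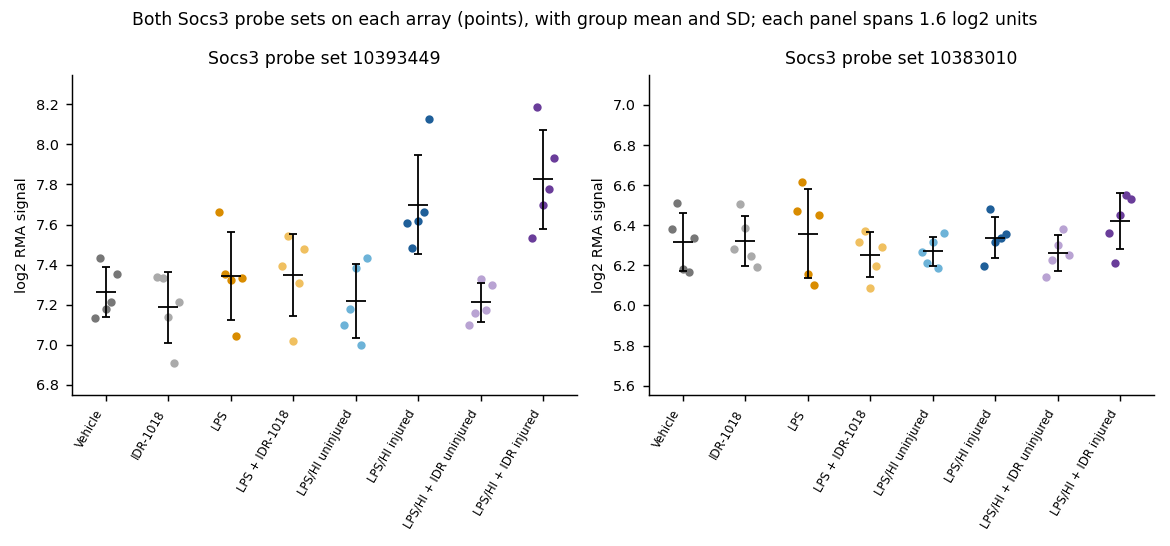
Log2 RMA signal (vertical axis) of both Socs3 probe sets on each array (points) by group, with group mean and SD, each panel covering the same height. Probe set 10393449 is higher in both injured groups, while the group means of 10383010 stay between 6.25 and 6.42.

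Among the ligands, Clcf1 was called in both settings. It rose by 0.40 ± 0.10 (1.32-fold; limma adjusted p = 0.035), from 6.31, 6.41, 6.62, 6.36 and 6.63 to 6.88, 6.70, 6.84, 6.77 and 7.16. With peptide it rose by 0.32 ± 0.07 (1.25-fold; limma adjusted p = 0.0396), from 6.47, 6.54, 6.45, 6.61 and 6.44 to 6.70, 6.76, 7.02, 6.90 and 6.72. The injured arrays lay above the uninjured arrays each time. Without peptide the Clcf1 call was lost without injured array 1, 3, 4 or 5 or uninjured array 1, 2 or 4 (limma adjusted p of 0.0542 to 0.0973). With peptide it was lost without any 1 array other than uninjured array 4, and with median centring (limma adjusted p of 0.0513 to 0.1).

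Il6 was dim in every group. Its injured values without peptide were 3.24, 3.46, 3.06, 3.21 and 3.16, against 2.98, 3.11, 3.02, 2.78 and 2.95, a difference of 0.25 ± 0.08 (limma adjusted p = 0.136) with overlap. With peptide they were 3.61, 4.21, 3.13, 3.48 and 3.69, against 2.88, 3.14, 3.02, 2.94 and 3.09. That difference was 0.61 ± 0.15 (limma adjusted p = 0.0497), with array 3 inside the uninjured range. Il6 stood at percentile 1.21 of all genes by mean signal, so no fold is given for it. The Il6 call was lost when any 1 array other than injured array 3 was left out, and also with median centring or further quantile normalization (limma adjusted p of 0.0517 to 0.126 over these). The test of a difference between the settings gave 0.36 ± 0.18 (limma adjusted p = 1).

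Lif was not called in either setting. Without peptide all injured values, 5.59, 5.67, 5.81, 5.81 and 6.14, lay above the uninjured 5.52, 5.27, 5.57, 5.50 and 5.33, with a difference of 0.37 ± 0.10 (limma adjusted p = 0.068). With peptide the injured values were 5.70, 5.53, 5.69, 5.77 and 5.62 and the uninjured 5.67, 5.60, 5.61, 5.63 and 5.86, a difference of -0.01 ± 0.07. The groups overlapped there. The interaction was -0.38 ± 0.12, with an unadjusted p of 0.00608 and a limma adjusted p of 1, and 0% of all genes were called in it.

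Receptor chains other than Osmr moved less. Il6st, the gp130 gene, was 0.25 ± 0.07 higher in injured tissue without peptide (limma adjusted p = 0.0701) and 0.29 ± 0.09 higher with it (limma adjusted p = 0.127), and its groups overlapped in both. Its values ran from 10.07 to 10.27 in uninjured and from 10.27 to 10.51 in injured tissue, and with peptide from 9.93 to 10.30 and from 10.19 to 10.57. Il6ra was 0.24 ± 0.07 higher without peptide (limma adjusted p = 0.0904), with no overlap, and 0.14 ± 0.07 higher with it (limma adjusted p = 0.369). Lifr differed by -0.04 ± 0.09 and -0.06 ± 0.11. Lifr had its highest mean after LPS with IDR-1018, at 9.49, and a mean of 9.16 in the injured hemisphere without peptide, which overlapped Vehicle. Il4ra rose by 0.30 ± 0.06 (1.23-fold; limma adjusted p = 0.0218) and by 0.38 ± 0.08 (1.31-fold; limma adjusted p = 0.0276). It read 7.96, 7.99, 8.03, 7.86 and 7.92 against 8.35, 8.25, 8.13, 8.28 and 8.23 without peptide, and 8.03, 8.05, 7.85, 7.88 and 7.72 against 8.19, 8.46, 8.39, 8.16 and 8.26 with it, so the groups were apart. The Il4ra call was lost without injured array 1, 2 or 4 or uninjured array 4 in the first setting, and without injured array 2, 3 or 5 or uninjured array 3, 4 or 5 in the second (limma adjusted p of 0.0559 to 0.0719 and of 0.0609 to 0.0672).

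**Figure D4:**
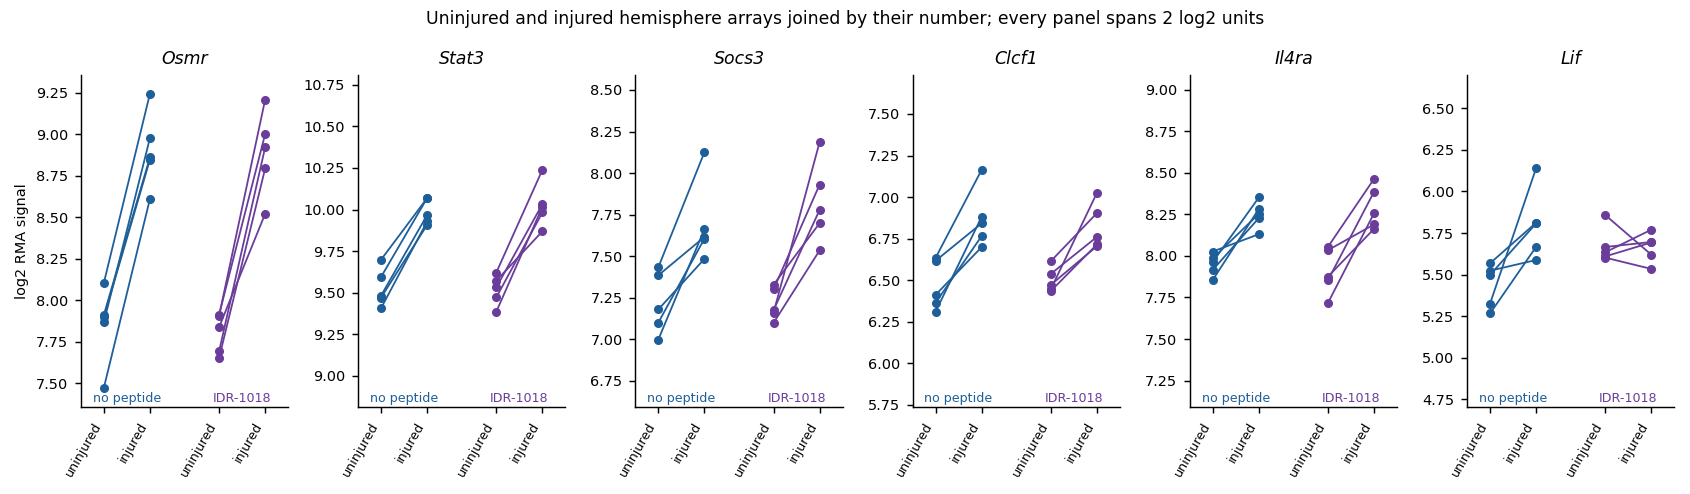
Log2 RMA signal (vertical axis) of 6 members in uninjured and injured hemispheres, with arrays of the same number joined by a line, without peptide (blue) and with IDR-1018 (purple). All 5 lines rise for Osmr, Stat3, Socs3, Clcf1 and Il4ra in both settings, and for Lif all 5 rise without peptide and 3 of 5 with it.

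Hemisphere arrays of the same number deviated together without peptide (r of 0.392 to 0.646 over genes), and a fit with the replicate number as a block called 9 of 10 members. It added Il6 (limma adjusted p = 0.0306), Lif (limma adjusted p = 0.0353), Il6ra (limma adjusted p = 0.0202) and Il6st (limma adjusted p = 0.0127) to the 5, and left out Lifr (limma adjusted p = 0.71). The share of all genes called in the block fit is not given here, so 9 of 10 has no share beside it. All 5 of the same-number differences were above 0 for each of the 9, and for Lifr 1 of 5 was. Without array 3 of the injured group, the one with both sex-linked signals, 4 members were called, against 3.22% of all genes. They were Osmr at 1.07, Stat3 at 0.48, Il4ra at 0.33 and Il6st at 0.28 (limma adjusted p = 0.0457). Clcf1 (0.41, limma adjusted p = 0.0545) and Socs3 (0.50, limma adjusted p = 0.0578) then missed the threshold with differences no smaller than before. Leaving out other single arrays gave 2 to 5 called members without peptide and 3 to 4 with it, and Osmr, Stat3 and, with peptide, Socs3 were called each time. Counts of 2 or 3 came without injured array 1, 2, 4 or 5 or uninjured array 1, 2 or 4 in the setting without peptide. Counts of 3 came without injured array 2 or 5 or uninjured array 3 or 5 in the setting with it.

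Values for other cells stood beside these differences. Of all genes, 2.99% and 2.50% were called between hemispheres without and with peptide, and 0.833% and 1.47% after LPS without and with peptide. The summed linear signal of 8 neuronal markers ran from 26100 to 28000 in uninjured and from 23700 to 25000 in injured hemispheres without peptide, and from 25900 to 27800 and from 23600 to 25700 with it. Of these 8, 1 was called in each setting, Neurod6, a cortical neuron factor, which differed by -0.73 and -0.77. Of 7 endothelial and pericyte markers Pecam1, an adhesion molecule, was called at 0.39 and 0.46, and Cdh5, a junction protein, at 0.36 with peptide. P2ry12, a receptor of resting microglia, was the 1 called of 7 microglial markers, at -0.45 without peptide. Of 6 oligodendrocyte lineage markers Pdgfra, a receptor of the precursor cells, was the 1 called, at -0.35 without peptide (limma adjusted p = 0.0453), with no overlap. Without injured array 3 neither was called (P2ry12 -0.46, limma adjusted p = 0.069; Pdgfra -0.36, limma adjusted p = 0.0631), while Neurod6 (-0.89) and Pecam1 (0.41) were. The 8 astrocyte markers overlapped between hemispheres, and 0 of them were called. After LPS, the summed signal of 5 monocyte and macrophage markers ran from 266 to 294, against 181 to 207 in Vehicle, and Ms4a6c was the 1 called of the 5 (0.98 ± 0.06, limma adjusted p = 1.54e-06). The median log2 difference of the 5 was 0.20, so the sum does not stand for every marker in it. Of 8 astrocyte markers Gjb6, a gap junction gene, was the 1 called after LPS, at 0.62. Among 7 endothelial and pericyte markers Tek was the 1 called, at -0.85. After LPS with IDR-1018 against IDR-1018 alone, Ms4a6c rose by 1.34 and Gjb6 by 0.83, while Tek (-0.80) and P2ry12 (-0.47) were lower. The monocyte and macrophage sum there ran from 263 to 338, against 181 to 220, with a median log2 difference of 0.21 over the 5 markers. The part of these cell types in the members' differences was not tested, and in whole tissue fewer cells of a type and less RNA per cell cannot be told apart.

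**Figure D5:**
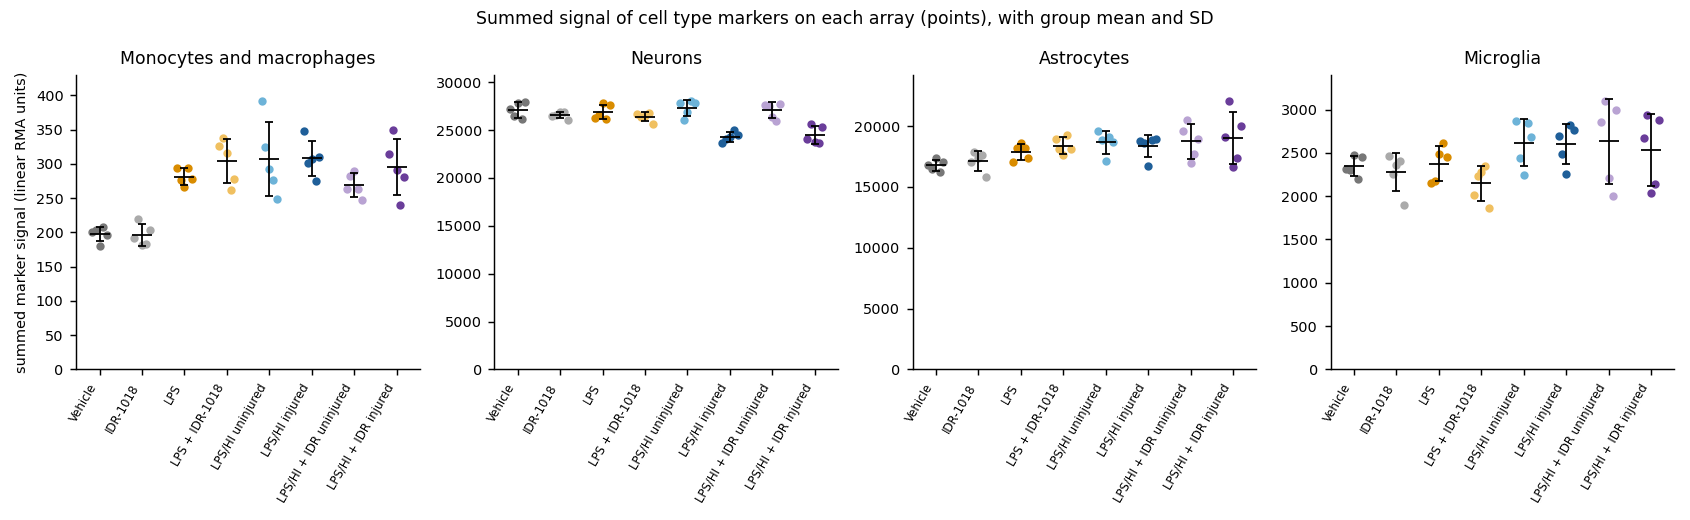
Summed linear RMA signal (vertical axis, from 0) of the markers of 4 cell types on each array (points) by group, with group mean and SD. Sums of the 5 monocyte and macrophage markers run from 181 to 207 in Vehicle and from 266 to 294 after LPS, where Ms4a6c was the 1 called. Sums of neuronal markers run from 26100 to 28000 in uninjured and 23700 to 25000 in injured hemispheres without peptide.

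The effect of IDR-1018 within the LPS/HI model was compared hemisphere by hemisphere. No member was called in either hemisphere by limma, and 0% of all genes were called in both. At an unadjusted p under 0.05 there was 1 member in the injured hemisphere, Il6 (0.40 ± 0.15), beside 1.39% of all genes, and 1 in the uninjured hemisphere, Lif (0.24 ± 0.08), beside 1.89%. In the uninjured hemisphere all 5 Lif values with peptide were above the 5 without, a separation that 70 of 19937 genes showed in either direction. For Osmr the peptide difference in the injured hemisphere was -0.02, with a 95% interval of -0.30 to 0.26. For Stat3 it was 0.04, with an interval of -0.12 to 0.20, and for Socs3 0.13, with an interval of -0.15 to 0.41. These intervals hold 0 and leave room for changes of the size of their ends. Without injured array 3 the differences were -0.03, 0.02 and 0.11, Il6 differed by 0.36, and no member was called.

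The uninjured hemisphere, which had received LPS and lay opposite the injury, was also set against Vehicle. No member was called there, against 0.436% of all genes, and none was called when the uninjured hemisphere with IDR-1018 was set against IDR-1018 alone, against 0.201%. At an unadjusted p under 0.05 there were 4 members in the first, Il4ra, Il6ra, Lif and Osmr, beside 6.58% of all genes, and 1 in the second, Il6ra, beside 5.28%. Osmr was 0.23 ± 0.10 higher (limma adjusted p = 0.692) and Il4ra 0.18 ± 0.08 higher (limma adjusted p = 0.738), while Lif differed by -0.24 ± 0.08 (limma adjusted p = 0.434). Set against LPS alone, which was sampled earlier after LPS, Osmr in the uninjured hemisphere differed by -0.46 ± 0.10 (limma adjusted p = 0.135) and Il4ra by -0.34 ± 0.07 (limma adjusted p = 0.109). All uninjured values of both genes lay below all LPS values, a separation that 239 of 19937 genes showed in either direction. Neither gene was called, and 0.135% of all genes were. In this last comparison 3 members had an unadjusted p under 0.05, beside 4.25% of all genes, and the groups also differ in HI.

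The injured hemisphere against Vehicle called 5 members higher, against 8.34% of all genes, and with peptide against IDR-1018 alone 6, against 5.87%. These comparisons share their injured arrays with those above, so the values are given side by side only. Without and with peptide the differences were 1.28 and 1.20 for Osmr, 0.55 and 0.53 for Stat3, 0.44 and 0.64 for Socs3, 0.48 and 0.49 for Il4ra and 0.39 and 0.40 for Il6ra. With the mean of both probe sets Socs3 differed by 0.23 and 0.37, and the first was no longer called (limma adjusted p = 0.0913). That Socs3 call was also lost with Xist as a covariate or without Vehicle array 1, 3 or 4. Il6ra read 7.66, 7.61, 7.49, 7.59 and 7.50 in Vehicle and 7.86, 8.00, 7.83, 8.01 and 8.09 in the injured hemisphere, with no overlap (limma adjusted p = 0.00241). The uninjured hemisphere lay between them, at 7.61, 7.70, 7.75, 7.72 and 7.83, and overlapped Vehicle. Between the injured hemisphere and Vehicle, 1743 of 19937 genes did not overlap, in either direction. Il6 was called against IDR-1018 alone (0.61, limma adjusted p = 0.0297) and not in the comparison without peptide (0.11, limma adjusted p = 0.522). That call was lost with Xist as a covariate, without injured array 1 or 5 and without any 1 of the IDR-1018 arrays (limma adjusted p of 0.0514 to 0.0873). Without the injured array with both sex-linked signals, 5 members were still called against Vehicle, beside 8.99% of all genes. The 95% interval for Lifr was -0.17 to 0.13 without peptide.

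Markers of many cell types moved in these same comparisons, where 8.34% and, with peptide, 5.87% of all genes were called. The part of the markers' cell types in the members' differences was not tested. Against Vehicle, 3 of 8 astrocyte markers rose, Gfap (0.63), Gjb6 (0.33) and Aldoc (0.22), and 2 of 5 monocyte and macrophage markers, Ms4a6c (1.19) and Plac8 (0.54). Of 7 microglial markers Itgam (0.89), Aif1 (0.37) and Fcrls (0.35) rose and P2ry12 fell (-0.61). Of 8 neuronal markers Neurod6 (-0.86) and Tubb3 (-0.47) fell. Among 6 oligodendrocyte lineage markers Pdgfra (-0.32) and Cspg4 (-0.22) fell and Mbp rose (0.44), and among 7 endothelial and pericyte markers Pecam1 (0.31) and Cdh5 (0.26) rose and Rgs5 fell (-0.33). Without injured array 3 Aif1 and Cdh5 were not called (limma adjusted p of 0.0647 and 0.0548), and Cx3cr1 and Mog were called in addition. With peptide against IDR-1018 alone, Ms4a6c (1.17), Itgam (0.70), Chil3 (0.48), Gfap (0.48), Plac8 (0.43), Pecam1 (0.38), Aif1 (0.34), Cdh5 (0.31) and the neutrophil gene S100a8 (0.29) rose. Neurod6 (-0.75), P2ry12 (-0.63) and Pdgfra (-0.37) fell there. No other of the 7 neutrophil markers was called. Chil3 was dim, with group means of 3.13 with IDR-1018 alone and 3.61 in the injured hemisphere with peptide. So were Plac8 (4.88 and 5.31) and S100a8 (4.87 and 5.16). These means lay under 6.04, the mean signal below which genes were counted among the dimmest. Plac8 was as dim in Vehicle (4.79) and the injured hemisphere without peptide (5.32). The marker sums overlapped for astrocytes in both comparisons, at 16700 to 18900 in the injured hemisphere against 16200 to 17400 in Vehicle. Those of monocyte and macrophage markers did not, at 275 to 348 against 181 to 207. Ms4a6c differed by 1.19 there, while the median log2 difference of the 5 markers was 0.06. The sum therefore does not stand for every marker in it.

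Of 14 further ligands and receptors of the gp130 family 11 were measured, and none was called in either LPS or either hemisphere comparison. Their median difference was 0.14 between hemispheres without peptide, beside 0.01 over all genes, and -0.01 with peptide, beside 0.00. Ebi3, a chain of interleukin-27, was the 1 called anywhere, and differed between the injured hemisphere and Vehicle by -0.23 ± 0.06 (limma adjusted p = 0.0211). In that comparison 8.34% of all genes were called, so 1 of 11 is near the share of all genes. Osm, the ligand of the Osmr chain, was picked out here for that reason. Its group means lay between 5.25 after LPS and 5.43 in the injured hemisphere, with SDs of 0.10 to 0.16. These means lay under 6.04, the mean signal below which genes were counted among the dimmest. Values so dim cannot tell an unchanged Osm level from a lack of detection. Of 18 JAK kinases and STAT inhibitors 17 were measured. Ptpn1, a tyrosine phosphatase, was the 1 called, in the injured hemisphere against Vehicle (0.30 ± 0.07, limma adjusted p = 0.0211). With 8.34% of all genes called there, 1 called gene in a list of this size is not particular to the list. Between hemispheres Ptpn1 was 0.27 ± 0.07 higher (limma adjusted p = 0.0595). Without injured array 3 Ebi3 (-0.24) and Ptpn1 (0.31) were still called against Vehicle, and Ptpn11, another phosphatase, was called in addition (0.20, limma adjusted p = 0.0492). In that fit 8.99% of all genes were called.

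A further list held genes that STAT3 is known to induce. All 26 of them were measured, and several are also targets of NF-kB or other factors. After LPS 5 rose and 1 fell, against 0.833% of all genes called, and after LPS with IDR-1018 against IDR-1018 alone 6 rose and 1 fell, against 1.47%. The list medians were 0.11 and 0.07, beside -0.02 and -0.02 over all genes. Lcn2, the siderophore-binding lipocalin, rose most, by 3.90 ± 0.22 (14.9-fold; limma adjusted p = 6.96e-07) and by 3.87 ± 0.18. Saa3 (0.99), Steap4 (0.74) and Lrg1 (0.53) followed after LPS alone, and Steap4 (1.10), Serpina3n (0.90) and A2m (0.63) after LPS with peptide. Ccnd1, the cyclin, was the 1 that fell in both.

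Between hemispheres 6 of the 26 rose without peptide and 8 with it, and none fell, against 2.99% and 2.50% of all genes called. The list medians were 0.22 and 0.30, beside 0.01 and 0.00 over all genes. Timp1, the metalloproteinase inhibitor, rose by 0.87 ± 0.20 (limma adjusted p = 0.0309) and by 1.17 ± 0.12 (limma adjusted p = 0.000333). Vim, the intermediate filament of reactive glia, rose by 0.56 and 0.69, Icam1 by 0.54 and 0.69, and Cebpd, an acute phase transcription factor, by 0.63 and 0.60. Lcn2 was called with peptide (0.81, limma adjusted p = 0.0467). Without injured array 3 the count without peptide was 5, against 3.22% of all genes, as Timp1 was not called (0.85, limma adjusted p = 0.0631). Against Vehicle, 13 of the 26 rose in the injured hemisphere, against 8.34% of all genes called, and 3 in the uninjured one, against 0.436%, namely Lcn2 (2.47), Saa3 (1.36) and Serpina3n (0.81). The count in the injured hemisphere was also 13 without its array 3, against 8.99% of all genes, with Junb called in place of Steap4. Against IDR-1018 alone, 11 rose in the injured hemisphere with peptide, against 5.87%. In the uninjured hemisphere with peptide Lcn2 alone rose against IDR-1018 alone (1.94), against 0.201%, and neither Saa3 nor Serpina3n was called. Gfap stands both in this list and among the astrocyte markers.

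Around Il4ra, 10 of 11 listed genes of interleukin-4 and interleukin-13 signalling were measured. Tgm2, a transglutaminase, rose by 0.90 ± 0.08 after LPS (limma adjusted p = 2.65e-05), by 0.82 after LPS with IDR-1018 and by 0.38 in the injured hemisphere against the uninjured one without peptide (limma adjusted p = 0.0333; 0.42 without injured array 3, limma adjusted p = 0.0267). In the uninjured hemisphere it was below LPS alone, with a difference of -0.66 (limma adjusted p = 0.0023). Il13ra1, the chain that pairs with the product of Il4ra, rose by 0.29 ± 0.06 after LPS with IDR-1018 (limma adjusted p = 0.037). Il4 itself had group means between 5.53 and 5.64. These too lay under 6.04, among the dimmest genes, so they cannot tell an unchanged Il4 level from a lack of detection.

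Some genes followed the members' levels across the 8 groups. Among the 737 genes whose group means span at least 0.5, Pearson's r over 8 group means was highest with Osmr for Txnip (0.98), Fgf2 (0.98) and Cebpd (0.98), with Stat3 for Adgrl4 (1.00), Cyp1b1 (0.99) and Ctla2b (0.99), and with Socs3 for Arrdc3 (1.00), Ccn1 (0.99) and Maff (0.99). For Il4ra they were Acer2 (0.99), F3 (0.99) and Ifit3 (0.98), and for Il6 they were Cd83 (0.92), Rnu3a (0.92) and Ccn1 (0.91). With 8 points that share their arrays these values only describe likeness.

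The members themselves were alike over group means in 38 of 45 pairs with r above 0, but in 25 of 45 pairs within groups, over 40 arrays as deviations from their group means. Osmr and Stat3 were alike on both scales, at 0.96 and 0.70. Stat3 and Socs3 were not, at 0.94 over group means and -0.09 within groups, and Osmr and Socs3 gave 0.83 and -0.15. Within groups Socs3 went with Clcf1 (0.66), and Il6st went with Lifr (0.74) and Osmr (0.67). All values of a pair come from the same arrays, so shared RNA quality and tissue composition enter them.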

How the data were processed

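Total RNA of 40 mouse brain samples in 8 groups of 5 was measured on Affymetrix arrays. The deposited values are log2 signals, made by the authors with RMA and the affy package per the submitters' processing notes, with no version given. RMA quantile-normalizes arrays, so a shift shared by all genes would not show. Of 34760 probe sets, 21640 carried 1 symbol, 1321 several and 11799 none; 21553 gene IDs were found in RefSeq (GRCm38.p6), which changed 0 symbols. Per gene the probe set with the highest mean was used, leaving 19937 genes, 954 of them with several probe sets. The array annotation names no build, so probe sets have no coordinates here.

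The groups of each comparison were fitted with limma 3.58.1 (lmFit, eBayes) in R 4.3.3, without a block, and p-values adjusted (Benjamini-Hochberg) over all genes; interactions used 20 arrays. The number of arrays limits the precision. The script was tested on simulated data. Pairing by the number in the titles was checked with the correlation of same-number deviations from group means: r was 0.392 to 0.646 between hemispheres without peptide and 0.116 to 0.443 between injured hemisphere and Vehicle, all over 0.1. Every comparison was also fitted with the number as a block, whatever its r. Injured hemisphere and Vehicle arrays come from differently treated pups, so a shared number there is no pairing of animals. Alternatives were a fit to all groups, the block, the mean of probe sets, a filter on the dimmest 25% of genes, median centring, further quantile normalization, trend and robust eBayes, Xist as a covariate and leaving out each array.

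The members and lists were chosen with earlier results of these data known. Named were the 10 members, up to 4 called genes per list and comparison by size (or 2 with the smallest p), and 3 genes most like each member whose group means span at least 0.5; Osm, Il4 and the neuronal check genes were added after. Promoters came from RefSeq. Figures used matplotlib 3.10.9.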

Additional observations from a re-analysis of the deposited data

Results flagged for a closer look

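Of 80 combinations of member and group, 3 held 1 array whose gap to its nearest neighbour was large for the range of its 5 values, and chance alone gives about 1 in 20 such combinations. Socs3 read 8.13 on array 5 of the injured LPS/HI group without peptide, above 7.66. Il4ra read 8.51 on array 1 of the LPS group, above 8.25. Lif read 5.86 on array 5 of the uninjured LPS/HI group with IDR-1018, above 5.67.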

How the results depend on the processing

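Counts are of called members out of 10. Apart from the fits without injured array 3, shares of all genes called are not given for the alternatives. A higher count in them need not be particular to the members. Over the 2870 alternative values of single members, 2773 kept direction and side of the threshold, 77 lost a call, 20 gained one and no called value changed sign, while 122 uncalled values did. For LPS against Vehicle the count was 2 and became 1 with Xist as a covariate. For LPS with IDR-1018 against IDR-1018 alone it was 4, became 2 with the replicate block, which lost Lifr and Stat3, and ranged from 2 to 4 when single arrays were left out. For the hemispheres without peptide it was 5, became 8 in the fit to all groups and 9 with the replicate block, and ranged from 2 to 5 without single arrays. For the hemispheres with IDR-1018 it was 6 and ranged from 3 to 4 without single arrays. There same-number r was 0.0884 to 0.589, over 0.1 for numbers 1, 2 and 3, each closest to its own number, and not for 4 and 5, so the pairing is unsettled; the replicate block gave 7 by adding Il6st (limma adjusted p = 0.0452). For the uninjured hemisphere against LPS it was 0 and became 1 in the fit to all groups, where Il4ra was lower (limma adjusted p = 0.0485). The replicate block changed no call for the injured hemisphere against Vehicle, whose count ranged from 4 to 6 without single arrays. Other counts stayed within 1.5 times the reported ones. Il6 and Lif are too dim to enter the filtered fit. Causes of these shifts were not tested.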
